A study of Mus musculus with 6 samples.

Results

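Most of the 46 genes described here code for working parts of the lysosome other than the cathepsins. These are soluble acid hydrolases and their activator proteins, membrane proteins, and subunits of the vacuolar proton pump. The list also holds 2 genes that act on lysosome biogenesis, and the beta-galactosidase family. In that family Glb1l and Glb1l2 are listed as relatives of Glb1, and whether they act in the lysosome was not tested. The 46 are a list of gene symbols grouped by known function, drawn up with earlier results of these data known. The rule that picks their rows uses no measured value. All 46 were found among the 23238 gene symbols of the count tables, and all 46 passed the filter on low counts. Lysosomes digest material that a cell has taken up, including inhaled particles, dead cells and surfactant, which alveolar macrophages clear from the air spaces. The proton pump (vacuolar ATPase) acidifies the organelle, the acid hydrolases break down glycans, lipids and proteins at that low pH, and membrane proteins protect the limiting membrane and export the products. The transcription factor TFEB binds a palindromic E-box in the promoters of many of these genes, an element known as the CLEAR motif.

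RNA sequencing was carried out on whole lung tissue from wild-type (WT) mice that had received either PM or Veh (PBS), the saline vehicle, both by the route abbreviated i.t. The study asked what chronic PM exposure does to lung gene expression, per its title. The labels used here do not spell out PM, and they do not state its dose, the length of exposure, or the strain, age or sex of the mice. They also do not say whether each of the 3 samples per group was a separate animal, and p-values thus reflect no more than the spread among these samples, which may be technical.

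The tables of PBS replicates 1 and 2 held identical values in all 23282 entries. With no difference between them, they were counted as 1 sample, which left 2 PBS libraries (replicates 1 and 3) and 3 PM libraries. Total counts were 7410200 to 8827202 per library, at which a count of 0 allows a level of up to 0.348 to 0.430 CPM (counts relative to a common library total). These floors cover counting error only. The ribosomal RNA gene Rn45s took 15.7 to 25.4% of counts and haemoglobin genes 0.632 to 5.41%, the latter highest in PBS replicate 1. Markers of alveolar type 2 cells, the surfactant-making cells that define lung tissue, summed to 19547 to 25753 CPM in every library. Levels below are CPM scaled by the trimmed mean of M values (TMM), folds are log2 of PM over PBS with their standard error (SE), and "adjusted p" is the Benjamini-Hochberg value of edgeR's two-sided quasi-likelihood test over 14057 tested genes.

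The promoters of several members carry the E-box core of the CLEAR element, which is known from many of these genes. The shares that follow thus describe the windows and are not a test. Of the 46 genes, 38 matched a promoter window in RefSeq (GRCm38.p6), 300 bases long with 250 before and 50 after the annotated start. The E-box core CACGTG, searched on both strands, occurred in 12 of the 38 windows (31.6%) and in 8.09% of all 27025 genes with a window. The longer TCACGTG, which contains that core, occurred in the same 12 and in 4.29% of all genes. The palindrome TCACGTGA, nested in turn, occurred in 5 of the 38 (13.2%) and in 1.125% of all genes. The same palindrome flanked by a further G and C was found in Cln3 and in no other of the 38. The stretches below are shown because they let the reader see how these motifs are arranged in members whose levels are given further on. Each is printed 5′ to 3′ on the strand of its gene, and capitals mark the longest of these motifs at each site.
Lamp1, chr8:13159084-13159160, plus strand: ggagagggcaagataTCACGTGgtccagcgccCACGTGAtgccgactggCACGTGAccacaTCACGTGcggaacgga
Cln3, chr7:126583335-126583400, minus strand: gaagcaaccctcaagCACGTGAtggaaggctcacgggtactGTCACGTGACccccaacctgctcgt
Gla, chrX:134601178-134601248, minus strand: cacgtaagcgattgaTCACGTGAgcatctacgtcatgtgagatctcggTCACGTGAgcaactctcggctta
Mcoln1, chr8:3500432-3500495, plus strand: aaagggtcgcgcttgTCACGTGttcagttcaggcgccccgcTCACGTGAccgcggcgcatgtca
Atp6v1a, chr16:44139369-44139406, minus strand: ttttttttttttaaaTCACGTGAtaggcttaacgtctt
Glb1, chr9:114401014-114401050, plus strand: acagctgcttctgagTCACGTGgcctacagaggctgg
Naglu, chr11:101070005-101070041, plus strand: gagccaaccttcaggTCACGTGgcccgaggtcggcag
Sgsh, chr11:119355518-119355554, minus strand: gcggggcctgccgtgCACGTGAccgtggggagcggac
Arsa, chr15:89477425-89477456, minus strand: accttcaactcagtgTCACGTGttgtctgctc

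Lamp1 has 4 copies of the 7-base motif within 77 bases directly upstream of its start, and Gla has 2 copies of the 8-base palindrome. The other members with the core were Atp6v0d1, where it lies across the start, Gaa and Lgmn. A match is a description of the letters in the window and does not show that a factor binds there. No window was used for Galns, Asah1, Npc1, Glb1l2, Atp6v0d2, Atp6v1b2, Atp6v1c1 and Atp6v1h.

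After PM most of the 46 genes stood somewhat higher than after PBS, and the beta-galactosidase-like gene Glb1l2 was the member that passed the test. Glb1l2 fell to 0.433 of its PBS level. By edgeR 0 of 46 members rose and 1 fell, where 0.228% of all tested genes were called, 0.142% as higher and 0.0854% as lower. At an unadjusted p below 0.05 there were 15 members higher (7.26% of all tested genes) and 1 lower (6.05%). DESeq2 called 7 members higher (Acp5, Atp6v0d2, Cd68, Hexa, Laptm5, Npc2 and Psap), where it called 1.82% of genes, and Glb1l2 lower, where it called 0.772%. With limma-voom, which called 0.121% of genes in either direction, Glb1l2 was again the member called.

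The fold was above 0 in 39 of the 46 members, against 51.1% of all tested genes, and the median fold was 0.24 against 0.01. In 22 members all PM libraries lay above both PBS libraries, which held for 15.5% of all tested genes. In 4 members, Glb1l2, Glb1l, Arsa and Sgsh, all PM libraries lay below both, which held for 16.1%. The groups overlapped in the other 20 members. The 4 with the largest upward folds were Atp6v0d2, Cd68, Acp5 and Manba. The plot of the members by library shows these values gene by gene.

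**Figure D1:**
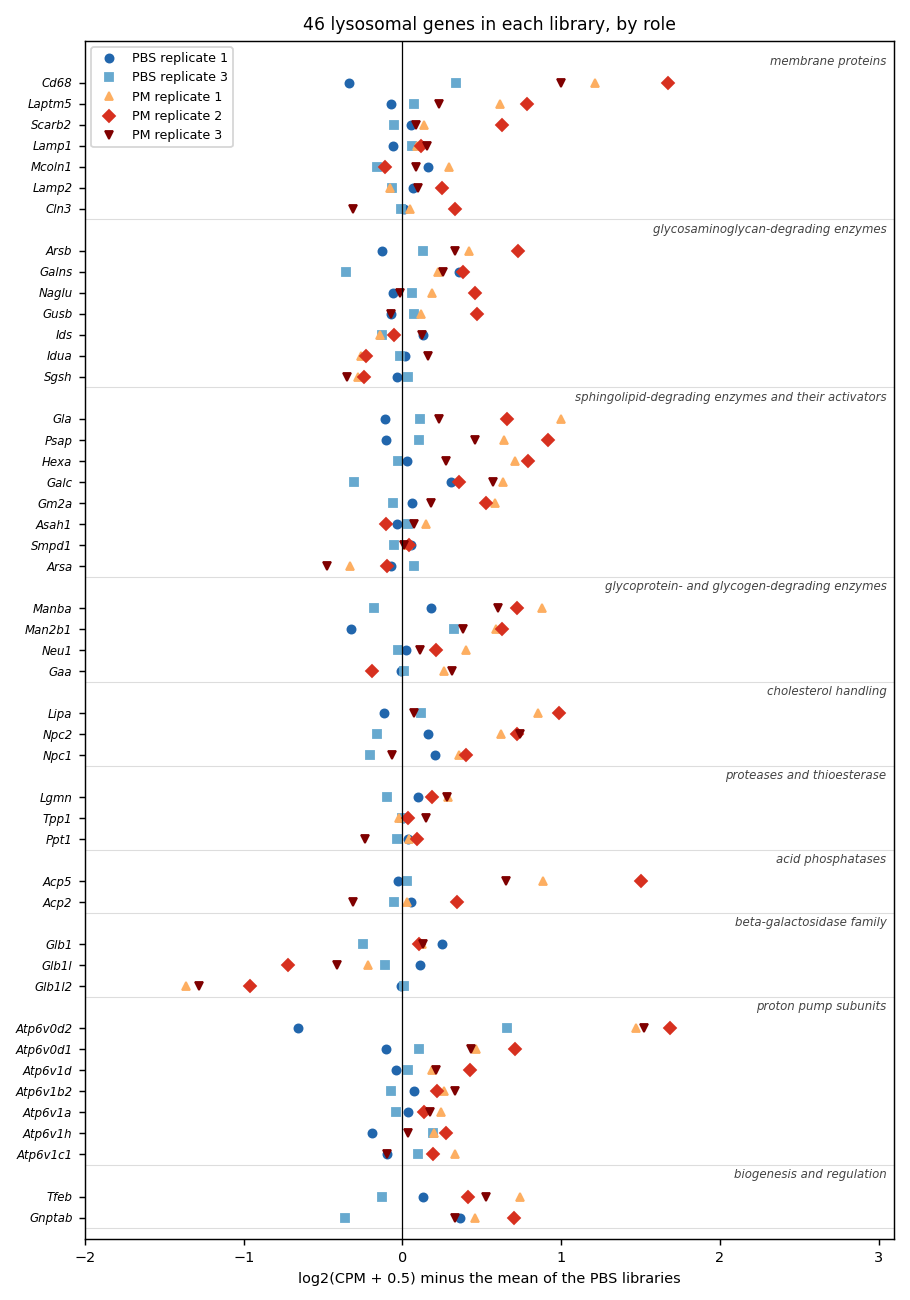
Each row is 1 of the 46 genes, sorted by role, and each point is 1 library, drawn as log2(CPM + 0.5) minus the mean of the 2 PBS libraries. Points of the PM libraries lie mostly to the right of 0, by far for Atp6v0d2, Cd68 and Acp5, and to the left for Glb1l2, where the libraries of the groups are well apart.

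The summed level of the 46 genes was 5148 and 4973 CPM in the PBS libraries and 6573, 7168 and 6348 CPM in the PM libraries. The groups did not overlap, and the PM mean was 1.32 times the PBS mean. Npc2, Psap and Lamp1 alone made up 49.99 and 50.2% of that sum in PBS and 54.5, 55.4 and 57.0% in PM. Without these 3 genes the ratio of the means was 1.18. Per kilobase of annotated exon, Psap (277 ± 28.5 CPM per kilobase, SD, n = 2), Lamp1 (252 ± 15.3) and Npc2 (202 ± 32.0) were the highest members in PBS. Psap and Lamp1 were within their spread of each other. The next, Ppt1 at 48.6 and Laptm5 at 40.7, were far lower. In PM the order was Psap at 445 ± 72.8, Npc2 at 325 ± 14.7 and Lamp1 at 274 ± 5.98 CPM per kilobase (SD, n = 3). These orders rest on the exon length used, which counts every annotated exon of a gene whether or not it is expressed. In CPM, Npc2 was above Psap and Lamp1 in PBS, with means of 1098, 761 and 675.

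Libraries of the PM group were not alike. PM replicate 2 had the highest level of the 3 PM libraries in 26 of the 46 members, PM replicate 1 in 12 and PM replicate 3 in 8. Of the 22 members that lay above both PBS libraries in every PM library, PM replicate 3 was the lowest PM library for 13. The number of members called by edgeR also moved with the library left out. It was 9 without PM replicate 3 (3.06% of all genes then tested), 2 without PM replicate 2 (0.762%), 0 without PM replicate 1 (0.0867%), 1 without PBS replicate 3 (0.0411%) and 0 without PBS replicate 1 (0.00688%). The 9 were Acp5, Cd68, Gm2a, Hexa, Laptm5, Lipa, Npc2 and Psap, all higher, and Glb1l2.

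Among membrane proteins, the macrophage-associated Cd68 and Laptm5 stood higher in PM, while the structural LAMP proteins differed little. None of the 7 membrane protein genes passed edgeR or limma-voom. At an unadjusted p below 0.05 there were 2, Cd68 and Laptm5, which DESeq2 also called. Cd68 (chr11:69664213-69666170, minus strand, mm10/GRCm38), a heavily glycosylated protein of macrophage lysosomes, measured 15.2 and 24.4 CPM in PBS and 45.3, 62.5 and 39.1 CPM in PM. Every PM library exceeded both PBS libraries, and the means were 19.8 ± 6.55 (SD, n = 2) and 49.0 ± 12.1 CPM (SD, n = 3), a 2.47-fold difference. The log2 fold of Cd68 was 1.30 ± 0.26 (SE), with an edgeR adjusted p of 0.0681 and a DESeq2 adjusted p of 0.000246. Laptm5, a lysosomal transmembrane protein of blood-derived cells, measured 147 and 162 CPM in PBS and 236, 266 and 181 CPM in PM. Its groups did not overlap, with PM replicate 3 nearest to PBS, and its log2 fold was 0.56 ± 0.16 (edgeR adjusted p = 0.147).

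Lamp1, an abundant glycoprotein of the lysosomal membrane, measured 646 and 704 CPM in PBS and 719, 731 and 751 CPM in PM. The PM libraries all lay above PBS, but by little, with a log2 fold of 0.12 ± 0.11 (edgeR adjusted p = 0.686). Lamp2, which also serves chaperone-mediated autophagy, measured 256 and 234 CPM in PBS and 232, 291 and 262 CPM in PM. Its groups overlapped, and the log2 fold was 0.09 ± 0.12. Scarb2, the receptor that carries glucocerebrosidase to lysosomes, measured 57.2 and 53.1 CPM in PBS and 60.7, 85.3 and 58.5 CPM in PM. PM replicate 2 stood apart for Scarb2, and the other PM libraries were just above PBS (log2 fold 0.30 ± 0.17, edgeR adjusted p = 0.484). Cln3 and the calcium channel gene Mcoln1 overlapped between groups, with log2 folds of 0.04 and 0.10.

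Enzymes that degrade glycosaminoglycans had the ratio of summed levels nearest to 1 among the role groups, 1.02. Their summed level was 225 ± 15.3 CPM in PBS (SD, n = 2) and 229 ± 13.2 CPM in PM (SD, n = 3). None of the 7 was called by edgeR, 0 had an unadjusted p below 0.05, and DESeq2 and limma-voom called 0. Arsb, arylsulfatase B of dermatan sulfate breakdown, measured 7.76 and 9.38 CPM in PBS and 11.6, 14.5 and 10.8 CPM in PM. All PM libraries lay above PBS (log2 fold 0.52 ± 0.25, edgeR adjusted p = 0.413), and 32.3% of its exon bases are shared with Gm26527 on the opposite strand. Sgsh, the sulfamidase of heparan sulfate breakdown, went the other way, at 21.6 and 22.7 CPM in PBS and 18.1, 18.6 and 17.3 CPM in PM. The Sgsh groups did not overlap, but the log2 fold of -0.30 ± 0.17 did not pass (edgeR adjusted p = 0.498), and 21.6% of its exon bases are shared with Card14. Naglu, which acts in the same pathway as Sgsh, overlapped at 15.9 and 17.3 CPM in PBS and 18.9, 22.9 and 16.4 CPM in PM. Gusb, Ids, Idua and Galns overlapped, with log2 folds from -0.10 to 0.26.

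Among sphingolipid-degrading proteins the activators and the hexosaminidase alpha subunit stood higher in PM, and arylsulfatase A did not. The summed level of these 8 genes was 1033 ± 68.8 CPM in PBS and 1560 ± 230 CPM in PM, a ratio of 1.51. None of the 8 was called by edgeR, 3 had an unadjusted p below 0.05, DESeq2 called 2 and limma-voom 0. Psap (chr10:60277628-60302600, plus strand), the precursor of the saposins that present sphingolipids to their hydrolases, measured 706 and 817 CPM in PBS and 1185, 1437 and 1042 CPM in PM. The lowest PM library was above the highest PBS library, the means were 761 ± 78.3 and 1221 ± 200 CPM (SD), and the log2 fold of 0.68 ± 0.15 had an edgeR adjusted p of 0.0692 and a DESeq2 adjusted p of 0.00116. Hexa (chr9:59539540-59565109, plus strand), which codes for the alpha subunit of beta-hexosaminidase, measured 61.0 and 58.8 CPM in PBS and 98.3, 104 and 72.4 CPM in PM. The PBS libraries of Hexa were close together and PM replicate 3 was the nearest to them (log2 fold 0.61 ± 0.16, edgeR adjusted p = 0.122). Hexa shares 12.8% of its exon bases with Tmem202 on the opposite strand. Gm2a, the activator that hands GM2 ganglioside to hexosaminidase A, measured 95.4 and 87.4 CPM in PBS and 137, 132 and 103 CPM in PM. Gm2a did not overlap between groups either (log2 fold 0.44 ± 0.14, edgeR adjusted p = 0.194).

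The other 5 sphingolipid genes ranged from -0.30 for Arsa to 0.72 for Gla on the log2 fold scale. Gla, alpha-galactosidase A, measured 4.17 and 4.94 CPM in PBS and 9.58, 7.45 and 5.42 CPM in PM, above PBS in every PM library but with a large error (SE 0.35). Arsa, arylsulfatase A of sulfatide breakdown, lay below PBS in every PM library, at 26.0 and 28.8 CPM against 21.6, 25.5 and 19.5 CPM. Arsa shares 18.8% of its exon bases with an antisense gene, C230037L18Rik. Asah1 and Smpd1 overlapped between groups, and Galc did not.

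The enzymes that trim mannose from glycoproteins stood higher in PM. None of the 4 glycoprotein and glycogen genes was called by edgeR, 2 had an unadjusted p below 0.05, and DESeq2 and limma-voom called 0. Manba, beta-mannosidase, measured 12.2 and 9.38 CPM in PBS and 20.1, 17.9 and 16.5 CPM in PM. The log2 fold of Manba was 0.75 ± 0.22, with an edgeR adjusted p of 0.154. Man2b1, lysosomal alpha-mannosidase, measured 20.4 and 32.4 CPM in PBS and 38.9, 40.0 and 33.7 CPM in PM. The PBS libraries differed from each other more than PM replicate 3 differed from PBS replicate 3, and the log2 fold of 0.51 ± 0.20 (edgeR adjusted p = 0.305) was 0.22 without PBS replicate 1 and 0.88 without PBS replicate 3. Neu1, the sialidase, did not overlap (log2 fold 0.25), and Gaa, the acid alpha-glucosidase, did (0.15).

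Cholesterol handling was led by Npc2, the small luminal protein that passes cholesterol to Npc1 for export. Npc2 (chr12:84754559-84773112, minus strand) measured 1221 and 975 CPM in PBS and 1676, 1801 and 1824 CPM in PM. The PM libraries were close to one another and all above PBS, with means of 1098 ± 174 (SD, n = 2) and 1767 ± 79.8 CPM (SD, n = 3). The 1.61-fold difference, a log2 fold of 0.69 ± 0.13, had an edgeR adjusted p of 0.0530 and a DESeq2 adjusted p of 6.47e-05. Lipa, the acid lipase that frees cholesterol from its esters, measured 57.6 and 68.0 CPM in PBS and 113, 124 and 65.8 CPM in PM. PM replicate 3 lay between the PBS libraries while the other PM libraries were well above, so the groups overlapped (log2 fold 0.69 ± 0.27, edgeR adjusted p = 0.343). Npc1, the membrane partner of Npc2, had a log2 fold of 0.23 and overlapped. Of these 3 genes edgeR called 0, 2 had an unadjusted p below 0.05, DESeq2 called Npc2 and limma-voom called 0.

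**Figure D2:**
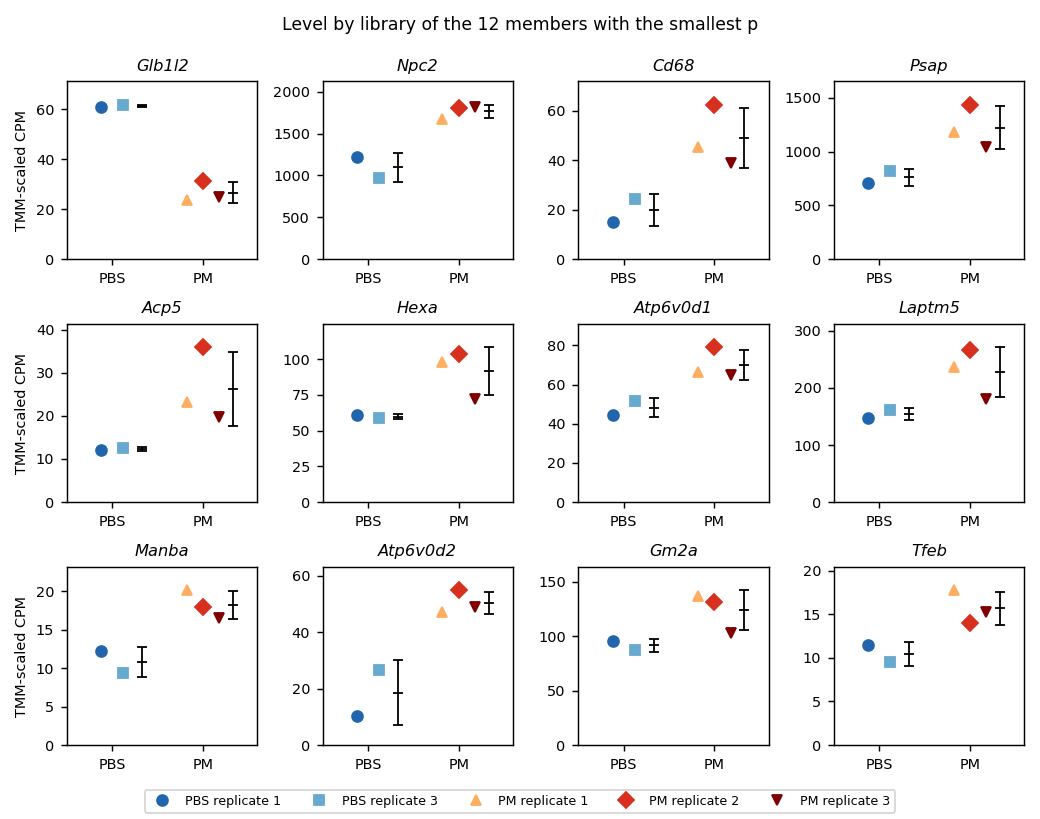
TMM-scaled CPM of the 12 members ranked first by p with edgeR, 1 panel per gene with its own axis from 0; points are libraries, and the bar beside each group is the mean ± SD (2 PBS and 3 PM libraries). Glb1l2 is lower in all PM libraries, at 23.5 to 31.2 CPM against 60.8 and 61.6 CPM, and the other 11 genes are higher in all PM libraries.

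The proteases outside the cathepsin family and the thioesterase Ppt1 differed little. Tpp1, tripeptidyl peptidase, measured 154 and 153 CPM in PBS and 151, 158 and 170 CPM in PM, with overlapping groups and a log2 fold of 0.06 ± 0.11. Lgmn, legumain, which cleaves after asparagine, measured 67.2 and 58.7 CPM in PBS and 76.6, 71.4 and 76.4 CPM in PM. Its groups did not overlap, and the log2 fold was 0.25 ± 0.13 (edgeR adjusted p = 0.427). Ppt1, which removes palmitate from proteins, had a log2 fold of -0.03. By edgeR, DESeq2 and limma-voom 0 of the 3 were called, and 0 had an unadjusted p below 0.05.

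Acid phosphatases were represented by Acp5 and Acp2, and neither passed edgeR. Acp5 (chr9:22126727-22135746, minus strand), the tartrate-resistant phosphatase of osteoclasts and activated macrophages, measured 12.1 and 12.6 CPM in PBS and 23.1, 35.8 and 19.7 CPM in PM. Every PM library was well above the PBS libraries, with means of 12.3 ± 0.384 (SD, n = 2) and 26.2 ± 8.51 CPM (SD, n = 3). The 2.12-fold difference, a log2 fold of 1.08 ± 0.26, had an edgeR adjusted p of 0.102 and a DESeq2 adjusted p of 0.0175. Acp2, the widely expressed lysosomal phosphatase, measured 57.0 and 53.0 CPM in PBS and 56.1, 69.9 and 44.3 CPM in PM. The Acp2 groups overlapped, the log2 fold was 0.04 ± 0.18, and its sign turned when PM replicate 2 (-0.13) or PBS replicate 3 (-0.01) was left out. Whether the folds of Acp5 and Acp2 differ from each other was not tested.

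The beta-galactosidase family was the group with lower levels in PM, through Glb1l2. Its summed level was 92.6 ± 4.81 CPM in PBS and 54.1 ± 1.86 CPM in PM, a ratio of 0.584. Glb1l2 (chr9:26763044-26806473, minus strand), a beta-galactosidase-like gene, gave 525 and 499 counts in PBS and 201, 218 and 197 counts in PM. On the CPM scale that was 60.8 and 61.6 in PBS and 23.5, 31.2 and 24.8 in PM. The PBS libraries were nearly equal and the highest PM library was far below them, with means of 61.2 ± 0.549 (SD, n = 2) and 26.5 ± 4.14 CPM (SD, n = 3). Glb1l2 fell by 1.21 ± 0.16 (SE) on the log2 scale, lower in 3 of 3 PM libraries, with an edgeR adjusted p of 0.0147, a DESeq2 adjusted p of 1.31e-06 and a limma-voom adjusted p of 0.0339. It ranked 8 by p among all tested genes. The fold stayed between -1.34 and -1.13 over the 15 alternatives and the gene was called in 12 of them, with adjusted p from 1.31e-06 to 0.379. The call was lost without PBS replicate 1 (adjusted p = 0.379), without PBS replicate 3 (0.174) and without PM replicate 1 (0.0726), by edgeR in each case. Only 0.641% of its exon bases are shared with another gene, B3gat1.

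Glb1, the classical acid beta-galactosidase whose activity is used as a senescence stain, measured 16.1 and 11.2 CPM in PBS and 14.7, 14.5 and 14.8 CPM in PM. Its PM libraries lay between the PBS libraries, with a log2 fold of 0.10 ± 0.22 (edgeR adjusted p = 0.900), and -0.14 without PBS replicate 3. Glb1l, another relative, measured 19.0 and 16.3 CPM in PBS and 15.1, 10.5 and 13.1 CPM in PM. All PM libraries of Glb1l lay below PBS, but the log2 fold of -0.45 ± 0.22 did not pass (edgeR adjusted p = 0.414). Glb1l shares 8.55% of its exon bases with Ankzf1.

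The proton pump genes stood higher in PM, most by a small step, with larger differences for Atp6v0d2 and, less so, Atp6v0d1. The summed level of the 7 member subunits was 579 ± 10.7 CPM in PBS (SD, n = 2) and 718 ± 14.0 CPM in PM (SD, n = 3), a ratio of 1.24. Of the 7, edgeR called 0, 4 had an unadjusted p below 0.05, DESeq2 called Atp6v0d2 and limma-voom called 0. Atp6v0d2 (chr4:19876838-19922566, minus strand), the d subunit isoform of osteoclasts and macrophages, measured 10.4 and 26.7 CPM in PBS and 47.2, 54.9 and 49.1 CPM in PM. The PM libraries were close together while PBS replicate 1 was well below PBS replicate 3. The means of 18.6 ± 11.5 and 50.4 ± 4.01 CPM (SD) differed 2.72-fold, and the log2 fold of 1.44 ± 0.36 had an edgeR adjusted p of 0.158 and a DESeq2 adjusted p of 0.000463. Against PBS replicate 3 alone the log2 fold of Atp6v0d2 was 0.92 with an edgeR adjusted p of 0.444, and against PBS replicate 1 alone it was 2.27 with an edgeR adjusted p of 0.0152.

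Atp6v0d1, the ubiquitous d subunit isoform, measured 44.7 and 51.7 CPM in PBS and 66.6, 79.0 and 64.9 CPM in PM. No PM library reached down to PBS, and the log2 fold was 0.54 ± 0.14 (edgeR adjusted p = 0.127). Atp6v1b2, the widely expressed B subunit of the cytosolic sector, measured 170 and 153 CPM in PBS and 194, 188 and 203 CPM in PM. Its groups did not overlap (log2 fold 0.27 ± 0.11, edgeR adjusted p = 0.316). Atp6v1a, Atp6v1c1, Atp6v1d and Atp6v1h, all of the cytosolic sector, had log2 folds from 0.15 to 0.28, and 2 of these 4 did not overlap between groups.

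Of the biogenesis genes, Tfeb, the CLEAR-binding transcription factor, measured 11.5 and 9.51 CPM in PBS and 17.8, 14.0 and 15.3 CPM in PM. Its groups did not overlap, and the log2 fold was 0.58 ± 0.22 (edgeR adjusted p = 0.288). Gnptab, part of the enzyme that tags hydrolases with mannose 6-phosphate, measured 31.2 and 18.6 CPM in PBS and 33.3, 39.6 and 30.5 CPM in PM. PM replicate 3 lay just below PBS replicate 1, and the log2 fold of 0.46 ± 0.22 ranged from 0.14 without PBS replicate 3 to 0.89 without PBS replicate 1. Of these 2 genes edgeR called 0, 1 (Tfeb) had an unadjusted p below 0.05, and DESeq2 and limma-voom called 0.

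**Figure D3:**
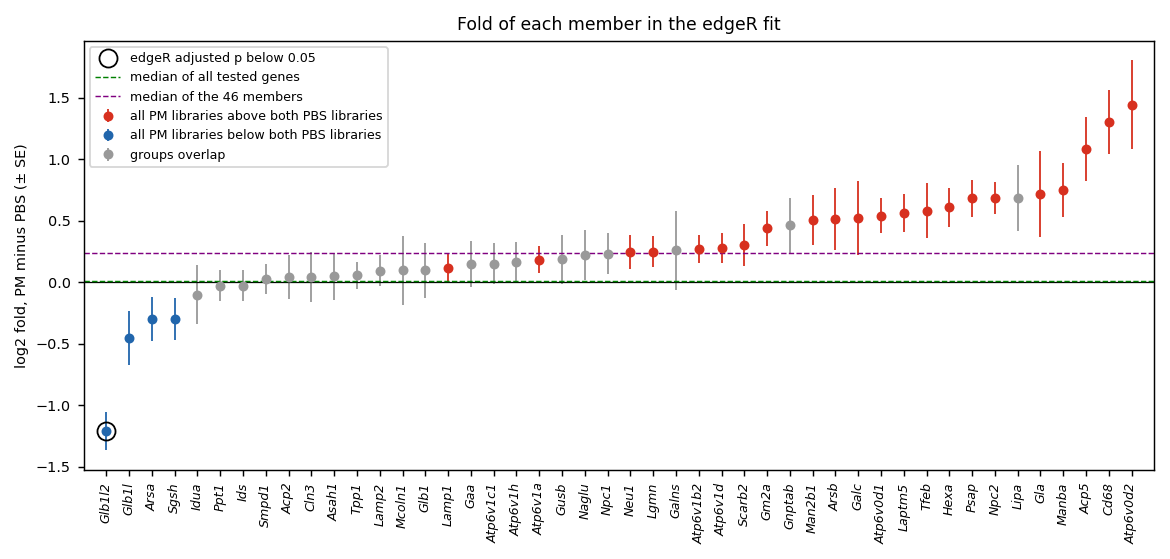
Log2 fold of PM over PBS with its SE in the edgeR fit, for the 46 genes in order of fold; red marks genes whose PM libraries all lie above both PBS libraries (22), blue all below (4) and grey overlap (20). The ring marks Glb1l2, the gene with an adjusted p below 0.05, and the dashed lines mark the medians of the members (0.24) and of all tested genes (0.01).

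Members with and without the CLEAR core in their promoter window were set side by side. The 12 with CACGTG had a median log2 fold of 0.13 (range -0.30 to 0.72), with all PM libraries above PBS in 5 and below in 2. The 26 with a window and no match had a median of 0.45 (range -0.45 to 1.30), with 15 above and 1 below. Of all tested genes, 15.5% lay above in every PM library and 16.1% below. Among the sequences printed above, Lamp1 with its 4 sites had a fold of 0.12, Gla with its pair of palindromes 0.72, Cln3 0.04, Mcoln1 0.10, and Sgsh and Arsa -0.30 each. Cd68, Acp5, Psap, Npc2, Hexa and Manba had no match in the window used, which covers 300 bases and says nothing of sites elsewhere. The difference between the medians was not tested.

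**Figure D4:**
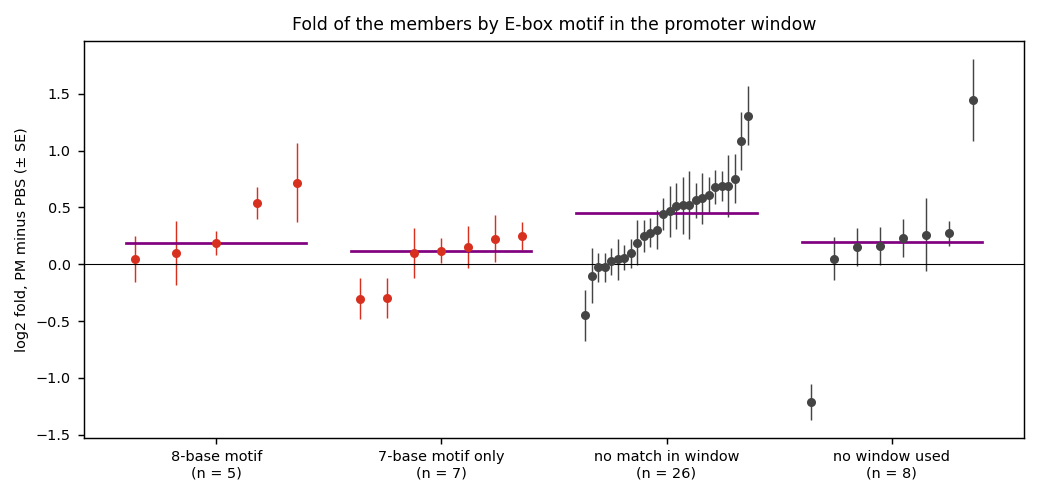
Log2 fold of PM over PBS with its SE for each member, by the longest E-box motif in its promoter window; the purple bars are medians, 0.19 for the 8-base motif TCACGTGA, 0.12 for the 7-base motif alone, 0.45 with no match and 0.20 where no window was used. The ranges of the groups overlap.

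Other genes of the pathway were read from lists by function. The shares of all tested genes to set beside the counts of these lists were as follows. By edgeR 0.142% were called as higher and 0.0854% as lower. At an unadjusted p below 0.05, 7.26% were higher and 6.05% lower. DESeq2 called 1.82% of its genes as higher and 0.772% as lower, and limma-voom called 0.121% in either direction. Of the 15 other pump subunits tested, 0 rose by edgeR, 5 had an unadjusted p below 0.05 (all higher), DESeq2 called 1 and limma-voom 0, and the median log2 fold was 0.19. Tcirg1, the a3 subunit of the pump in osteoclasts and macrophages, measured 20.9 and 16.4 CPM in PBS and 36.6, 46.9 and 29.6 CPM in PM. Its groups did not overlap, and its log2 fold of 1.01 ± 0.22 had an edgeR adjusted p of 0.0681. Atp6v0c, which forms the proton-carrying ring, had a log2 fold of 0.40 (edgeR adjusted p = 0.213).

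Of 12 cathepsins tested, 1 rose by edgeR (0.142% of all tested genes), and 8 did not overlap and stood higher (15.5%). The median log2 fold was 0.41. At an unadjusted p below 0.05 there were 5 cathepsins, all higher (7.26% of all tested genes). DESeq2 called 4 as higher, where it called 1.82% of genes, and limma-voom called 1. The gene that rose was Ctsk, a collagen-degrading protease, at 16.8 and 10.002 CPM in PBS and 44.2, 56.6 and 47.8 CPM in PM. The PM libraries of Ctsk were all far above PBS (log2 fold 1.88 ± 0.23, edgeR adjusted p = 0.0140). Ctsd, the main aspartic protease of lysosomes, had a log2 fold of 0.74 (edgeR adjusted p = 0.0525). Of 22 other hydrolases, 0 were called by edgeR, 3 had an unadjusted p below 0.05 (all higher), DESeq2 called 1 and limma-voom 0. Their median was 0.15, with Naaa, an acid amidase, at 0.79 (edgeR adjusted p = 0.128).

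Of 17 other membrane proteins, 0 were called by edgeR, DESeq2 or limma-voom and 2 had an unadjusted p below 0.05, and the median log2 fold was 0.06, with Slc15a3, a peptide and histidine transporter, at 0.87 (edgeR adjusted p = 0.110) and Cd63, a tetraspanin, at 0.35. Of 9 genes that sort or modify lysosomal enzymes, 0 were called by these tools and 0 had an unadjusted p below 0.05. The median of the sorting list was -0.13, and Sort1 and Sumf1 stood at -0.26 and -0.20. Of 14 autophagy genes, 0 were called by these tools and 0 had an unadjusted p below 0.05, with a median of 0.01, Sqstm1 at 0.21 and Atg5 at 0.23.

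Of 17 relatives of TFEB and genes of mTORC1 signalling at the lysosome, 0 were called by edgeR, DESeq2 or limma-voom, 2 had an unadjusted p below 0.05, and the median log2 fold was 0.12. Those 2 were Tfec, the relative found mainly in myeloid cells, at 1.22, and Tfe3 at 0.55 on the log2 fold scale, with edgeR adjusted p of 0.245 and 0.260. Of 10 osteoclast-type genes, listed because Acp5, Atp6v0d2 and Tcirg1 are used by osteoclasts, 8 were tested, with a median log2 fold of 0.41. Ctsk rose and the others did not pass. Among them Car2, the carbonic anhydrase of osteoclasts, stood at a log2 fold of -0.24, and Oscar, a receptor of osteoclasts, had 0 counts in all 5 libraries.

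**Figure D5:**
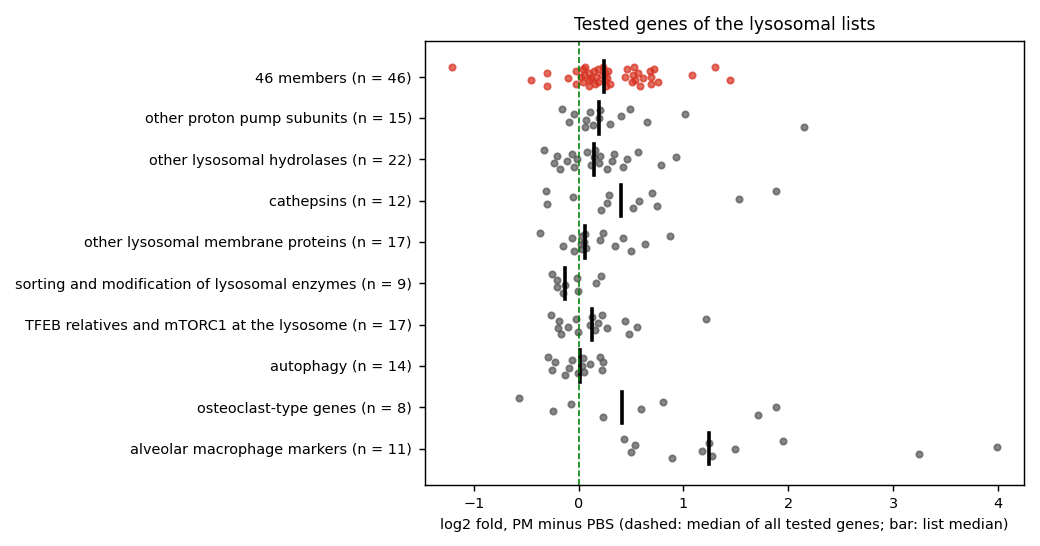
Each point is a tested gene, placed by its log2 fold of PM over PBS, with the 46 genes in red and other lists in grey; the short bar is the list's median and the dashed line the median of all tested genes (0.01). Medians are 0.24 for the 46 genes, 0.41 for cathepsins, -0.13 for sorting genes and 1.24 for alveolar macrophage markers.

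Most markers of macrophages, cells rich in lysosomes, stood higher in PM, as most of the 46 genes did. In bulk tissue, fewer or more cells of a type and less or more RNA per cell cannot be told apart. Of 12 alveolar macrophage markers 11 were in the tables and tested (Siglec5 was not found). None was at 0 in every library, and the median log2 fold was 1.24. Above PBS in every PM library stood 9 of the 11, against 15.5% of all tested genes. Their summed level was 337 and 581 CPM in PBS and 1407, 1724 and 1166 CPM in PM. Chil3, a chitinase-like protein named here for its share of that sum, set the order of the PM libraries. Its PBS libraries were far apart, at 18.2 and 127 CPM. Without Chil3 the sums of the other 10 were 319 and 454 CPM in PBS and 816, 710 and 713 CPM in PM, still above PBS in every PM library. Marco, among those 10, overlapped, at 0.811 and 3.83 CPM in PBS and 52.1, 1.72 and 55.4 CPM in PM. By edgeR 0 of these markers were called, 6 had an unadjusted p below 0.05, DESeq2 called 5 and limma-voom 0. Markers of interstitial macrophages and monocytes summed to 314 and 299 CPM in PBS and 475, 659 and 389 CPM in PM. Of these 10 markers 7 stood above PBS in every PM library, again against 15.5% of all tested genes, and 3 overlapped. The log2 fold was below 0 for 2 of them, Csf1r (-0.15) and Cx3cr1 (-0.10). Among these markers Ccr2, a chemokine receptor of monocytes, rose by edgeR (log2 fold 1.28, adjusted p = 0.0142).

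Markers of alveolar type 1 cells summed to 4752 and 4730 CPM in PBS and 3569, 3527 and 3749 CPM in PM. Fibroblast markers summed to 4713 and 4475 CPM in PBS and 3558, 3086 and 2966 CPM in PM, and endothelial markers to 1906 and 2098 CPM in PBS and 1660, 1366 and 1588 CPM in PM. These 3 sums were lower in every PM library, as was Glb1l2. By edgeR 0 of 6, 0 of 7 and 0 of 6 of these markers were called. At an unadjusted p below 0.05 there were 4, 3 and 5 lower, DESeq2 called 2, 2 and 0, and limma-voom called 0. Neutrophil markers, with 6 of 7 tested (Ly6g was not found), summed to 267 and 131 CPM in PBS and 268, 206 and 923 CPM in PM, highest in PM replicate 3. All 6 had a log2 fold above 0. Retnlg and Mmp8 stood above PBS in every PM library (15.5% of all tested genes), and 4 overlapped. Of the 6, edgeR and limma-voom called 0 and DESeq2 called 2. Airway epithelial markers summed to 21527 and 22302 CPM in PBS and 17071, 22915 and 33336 CPM in PM, which overlapped. The 5 tested had a log2 fold above 0. Of these 5, edgeR and limma-voom called 0 and DESeq2 called 1. The part of these cell types in the levels of the 46 genes was not tested.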

How the data were processed

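Lung RNA was extracted with easy-BLUE and sequenced from SENSE mRNA-Seq (Lexogen) libraries, per the labels' protocols. TopHat, Cufflinks and the mouse build mm10 are named, per the submitters' processing notes. Their versions and roles, the counting program, the annotation and the use of strand were not given in the sources used here. Without known strand use, reads of overlapping genes cannot be told apart, and 17 of the 46 genes share exon bases with another gene in GENCODE M21. The deposited values are the authors' raw counts per gene symbol, with no normalization. The second PBS table, identical to the first, was counted once. A blank entry in the first PBS table was left out. For 35 repeated symbols the entry with most counts was used, which set aside 44 entries (0.0251% of counts).

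Counts were filtered with filterByExpr, scaled by TMM and tested with edgeR 4.0.16 in R 4.3.3 (glmQLFit with robust estimation and glmQLFTest, no covariates). A gene was called when its Benjamini-Hochberg adjusted p, over 14057 genes, was below 0.05. The SE was taken as the fold over the root of F. Levels per kilobase used the union of GENCODE M21 exons. Floors are 3 counts per library. Gene positions are from RefSeq for GRCm38, the assembly of mm10. The procedure was also run on simulated counts, and the outcome is not reported here.

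The 46 genes and all lists were chosen with earlier results of these data known. Genes given in full were those called, the 3 with the smallest p in each role group (2 in groups under 5 genes), and Lamp1, Lamp2, Glb1, Glb1l, Glb1l2, Atp6v0d1, Atp6v0d2, Acp5 and Tfeb. Of the other pathway lists the called genes and the 2 with the smallest p were named, and Ccr2 was named among the markers as called. Some genes that this selection gave are not reported here. Genes named beyond this rule, such as Gla, Arsa and Oscar, were chosen after their values were seen.

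Alternatives were RLE and upper-quartile scaling, no filter, 1 CPM in 3 libraries, DESeq2 1.42.0, limma-voom (limma 3.58.1), a replicate block, all 6 tables, no Rn45s or haemoglobin genes, non-robust estimation, and each library left out.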

Additional observations from a re-analysis of the deposited data

How the results depend on the processing

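Counts of calls depended on the fit, and the cause was not tested. By edgeR 32 genes were called (0.228% of genes tested), and 275 with no filter on low counts (1.53%). With all 6 tables as deposited 635 were called (4.59%), by DESeq2 369 (2.59%) and by limma-voom 17 (0.121%). Among the 46 genes 1 was called, 6 with no filter (Acp5, Cd68, Hexa, Npc2, Psap and Glb1l2), 10 with all 6 tables and 8 by DESeq2. The fit on all 6 tables treats a duplicated library as a replicate. Leaving out each library in turn gave 1 to 427 genes called and 0 to 9 of the 46. Without a PBS library, the remaining PBS library is assumed to vary like the PM libraries.

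Whether the replicate numbers pair the samples could not be settled from these data. Deviations correlated at -0.03 between the replicates numbered 1 and at 0.07 between those numbered 3. The deviations of the 2 PBS libraries are equal and opposite, so these values are not separate checks. A replicate block leaves PM replicate 2 without a partner, and so without weight in the folds. With this block 353 genes (2.51% of genes tested) and 4 of the 46 (Cd68, Npc2, Psap and Glb1l2) were called. Glb1l2 then had a log2 fold of -1.34 (edgeR adjusted p = 0.000118). The block turned the log2 fold of Acp2 to -0.14 and that of Cln3 to -0.13. The sign also turned for Acp2 without PBS replicate 3 (-0.01) and without PM replicate 2 (-0.13), and for Glb1 without PBS replicate 3 (-0.14). With each library left out in turn Acp2 ranged from -0.13 to 0.20 and Glb1 from -0.14 to 0.38. The median fold of the 46 genes was 0.21 with the block and 0.21 to 0.29 with each library left out. Over the 15 alternatives 36 of the 46 genes kept their sign. The other 10, whose groups all overlapped, were Acp2, Glb1, Cln3, Mcoln1, Ids, Galns, Asah1, Smpd1, Ppt1 and Atp6v1h. With 2 PBS libraries, each weighs heavily in every fold: Cd68 had 1.001 without PBS replicate 1 and 1.69 without PBS replicate 3.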

Other observations

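The neighbour of Glb1l2 was looked at after the values of Glb1l2 were seen. Glb1l3 (chr9:26817953-26862099), the next beta-galactosidase-like gene on the chromosome, gave 24 and 31 counts in PBS and 4, 11 and 6 counts in PM. That was 2.78 and 3.83 CPM in PBS and 0.467, 1.58 and 0.757 CPM in PM, so all PM libraries lay below both PBS libraries. The log2 fold of Glb1l3 was -1.83 ± 0.63 (SE), with an edgeR adjusted p of 0.224, so it did not pass the test. At so few counts the size of the difference is imprecise.

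The 7 member subunits of the proton pump and the 15 listed beside them were also split by sector after their values were seen. Among them, 9 code for the membrane sector, through which protons pass, with a median log2 fold of 0.40 (range -0.09 to 1.44) and 7 above PBS in every PM library. The cytosolic sector, which hydrolyses ATP, had 11 genes with a median of 0.19 (range -0.16 to 2.15) and 6 above PBS in every PM library. Of all tested genes, 15.5% lay above PBS in every PM library. The smallest edgeR adjusted p was 0.0681 in the membrane sector and 0.316 in the cytosolic sector. The other 2 genes, Atp6ap1 and Atp6ap2, code for accessory proteins. The upper end of the cytosolic range was Atp6v1b1, at 0.695 and 0 CPM in PBS and 1.29, 1.86 and 1.77 CPM in PM, near the floor. The difference between the sectors was not tested.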
